A study of Mus musculus with 8 samples.

Results

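The epidermal growth factor (EGF) receptor family and its ligands were followed across 4 mouse mammary tumour lines. The set was 10 genes, picked by symbol from the 27179 genes of the count tables. It held the receptors *Egfr*, *Erbb2*, *Erbb3* and *Erbb4* and the ligands *Areg*, *Ereg*, *Hbegf*, *Tgfa*, *Btc* and *Nrg1*. The remaining ligands of the family, *Egf*, *Epgn*, *Nrg2*, *Nrg3* and *Nrg4*, were read beside them.

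EGF family receptors are tyrosine kinases that signal as pairs. EGFR binds EGF, transforming growth factor alpha, amphiregulin, heparin-binding EGF-like growth factor, betacellulin, epiregulin and epigen. The neuregulins bind ERBB3 or ERBB4. These sets are not exclusive, since betacellulin also binds ERBB4. ERBB2 has no known ligand of its own and ERBB3 has little kinase activity, so each works mainly as a partner of another receptor. The ligands are made as membrane proteins and released by proteases, and in the mammary gland the family takes part in duct growth and in many tumours.

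RNA-seq libraries were made from 2 biological replicates of each line, which gave 8 libraries of cultured cells with no treatment. The lines, 4T1.2, 4T1, 66cl4 and 67NR, share a BALB/c origin, and 4T1.2 is a subline of 4T1. The sample labels write 66cl4 with a digit in place of its letter l, and the spelling of the series text was kept. The study sets 4T1 and 4T1.2 apart from 66cl4 and 67NR, which are less metastatic, and the same grouping was used here. Each group is a cell line, so a difference between lines cannot be told apart from a difference in culture history. Totals ran from 37159840 to 66269681 counts a library. Within a line the replicates had correlations of log2 level of 0.995 to 0.996 over the genes tested, and between lines of 0.779 to 0.985. The epithelial markers summed to 1473 to 2888 CPM (counts scaled to a common library size) in the 4T1.2 and 4T1 libraries and 464.1 to 719.2 CPM in the 66cl4 and 67NR libraries. *Epcam*, *Krt19* and *Cldn7* had at most 3 counts in every 66cl4 and 67NR library, while *Krt8* had at least 16981 in each of the 8 libraries. All 7 epithelial markers tested were higher in 4T1.2 and 4T1. The untested *Krt5* had 2 to 9 counts in the 66cl4 and 67NR libraries and 0 to 3 in those of 4T1.2 and 4T1. Of the 8 mesenchymal markers 7 were lower there and *Vim* was higher, with sums of 5395 to 7449 CPM against 3358 to 5754 CPM. *Cdh2* had at most 1 count in each 4T1.2 and 4T1 library and 2975 to 5099 in the others. *Vim* had at least 69387 counts in every library. The leucocyte marker *Ptprc* had at most 2 counts in any library and *Cd3e* had none, and the endothelial marker *Kdr* had at most 1. The endothelial list summed to 0.899 to 3.80 CPM in 4T1.2 and 4T1 and to 0.409 to 0.618 CPM in 66cl4 and 67NR, and both members tested, *Cdh5* (12.1-fold, 33 to 204 counts against 2 to 10) and *Pecam1* (2.00-fold, 11 to 18 counts against 2 to 8), were higher in 4T1.2 and 4T1 (adjusted p = 6.3e-06 and 0.017, edgeR). A leucocyte marker list summed to 4.13 to 5.82 CPM in 4T1.2 and 4T1 and to 19.5 to 26.6 CPM in 66cl4 and 67NR, where *Lyz2* had 791 to 1387 counts and made up most of the sum. Of the 4 leucocyte markers tested, *Lyz2* and *Cd79a* were lower in 4T1.2 and 4T1, whereas *Cd68* (log2 0.97, adjusted p = 3.71e-05) and *Itgam* (log2 2.04, adjusted p = 0.00509, edgeR, at most 16 counts) were higher. Tested markers of all 4 lists thus differed between the groups compared in the results below, in part in opposite directions. For *Itgam* and *Cd79a* the libraries of the groups overlapped. *Epcam*, *Cdh1*, *Krt19*, *Krt14*, *Cldn7*, *Cdh5*, *Pecam1* and *Itgam* passed a filter on low counts only with the help of the 4T1.2 and 4T1 libraries. *Cdh2*, *Col3a1* and *Lyz2* passed it only through the 66cl4 and 67NR libraries. The calls on these markers are therefore descriptions. The part of the markers in the results below was not tested. In bulk RNA, fewer cells that express a gene and less RNA in each cell cannot be told apart.

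In the comparison of 4T1.2 and 4T1 with 66cl4 and 67NR, the receptor *Egfr* and the ligands *Tgfa* and *Hbegf* were higher in 4T1.2 and 4T1. *Erbb3* was higher on average, *Btc* and *Nrg1* were lower, and *Erbb2* was lower on average. *Areg* did not pass the test. *Erbb4* had 0 counts in all 8 libraries, and *Ereg* had 1 count in a 4T1.2 library, 2 in a 4T1 library, 1 in a 67NR library and 0 in the others. Neither passed the filter on low counts, so 8 of the 10 genes were tested. Of these, 7 passed an adjusted p of 0.05 in edgeR's quasi-likelihood test, 4 higher and 3 lower. The test takes its spread from replicate libraries within a line. Its p-values thus do not measure variation between the lines of a group. The background was high, since 76.8% of the 13926 genes tested passed in this comparison, 38.1% higher and 38.6% lower. For 5 of the 8 the libraries of the groups did not overlap, where 55.5% of all genes tested did not, and 5 passed with a difference of more than 2-fold, against 31.9% of all genes. The median log2 difference of the 8 genes was 0.43 beside -0.01 over all genes, and their median absolute difference was 1.89 beside 0.58. The 10 genes were chosen with earlier results of these data known, so these shares and medians are descriptions. *Tgfa* passed the filter only through the 4T1.2 and 4T1 libraries.

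**Figure D1:**
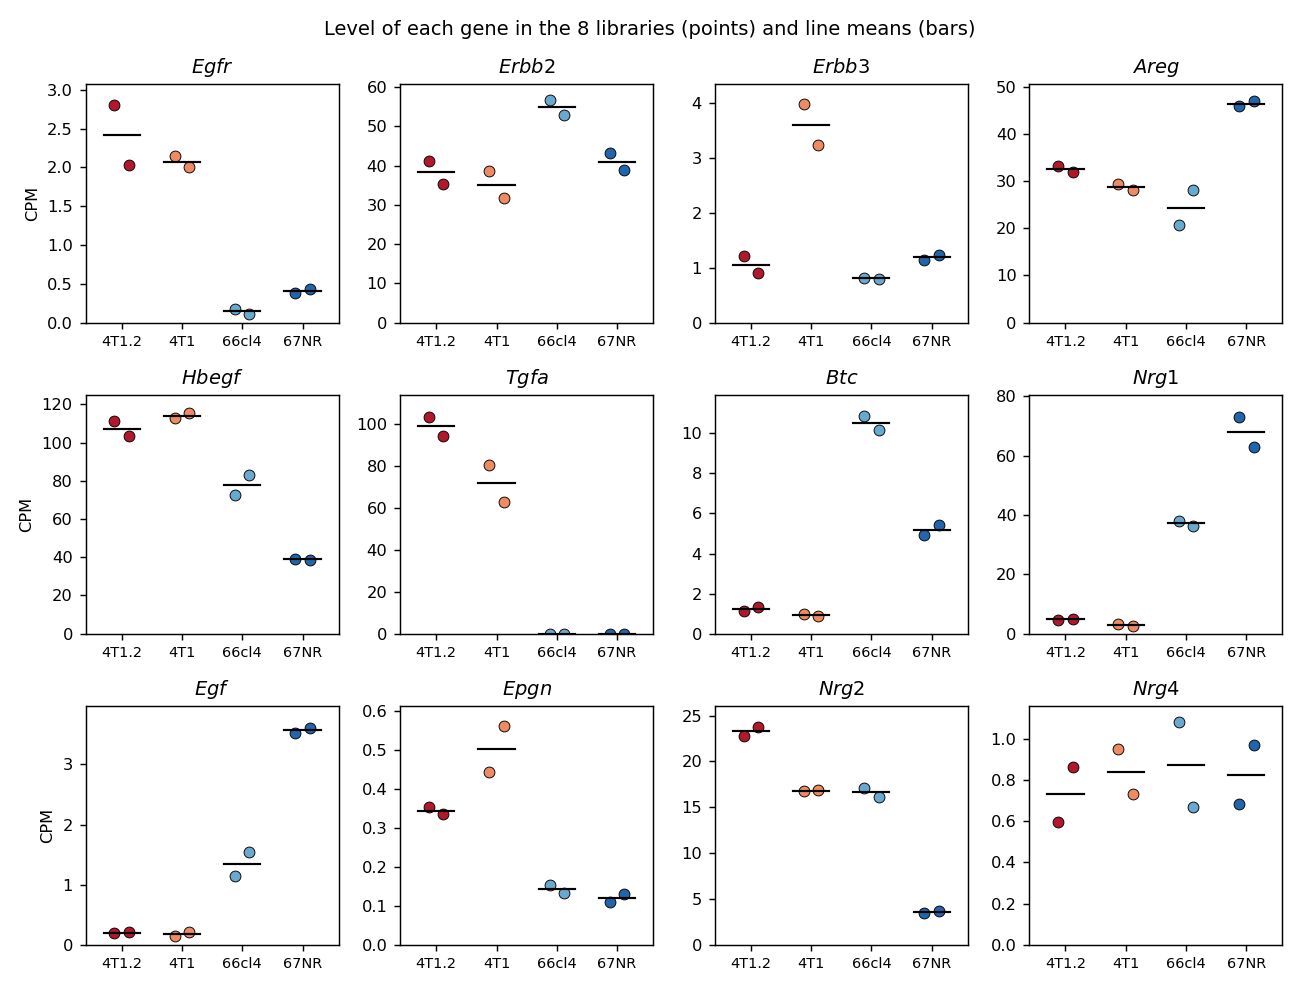
Level in CPM of 12 genes of the family in each of the 8 libraries (points) with the mean of each line (bars), each panel on its own axis from 0. *Tgfa* lies between 62.8 and 103.4 CPM in the 4T1.2 and 4T1 libraries and at or near 0 in the others, while *Btc*, *Nrg1* and *Egf* are higher in every 66cl4 and 67NR library than in any 4T1.2 or 4T1 library.

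Among the receptors, *Egfr* (chromosome 11, 16752203 to 16913907, GRCm38) had 159 and 115 counts in 4T1.2 and 131 and 93 in 4T1, against 14 and 27 in 67NR and 8 and 5 in 66cl4. On the CPM scale, the libraries were at 2.80 and 2.03 in 4T1.2 and 2.14 and 2.01 in 4T1, against 0.382 and 0.437 in 67NR and 0.177 and 0.112 in 66cl4. Every 4T1.2 and 4T1 library lay above every 66cl4 and 67NR library, at levels that were low throughout. The log2 difference was 3.18 (standard error 0.21, adjusted p = 4.18e-07, edgeR), a 9.06-fold difference. In the order of levels, 4T1.2 and 4T1 did not differ beyond their spread (log2 0.22, adjusted p = 0.545, edgeR), and both were above 67NR, which was above 66cl4 (66cl4 over 67NR, log2 -1.51, adjusted p = 0.0165, edgeR). This last difference rests on 54 counts in all. It had an adjusted p of 0.107 without replicate 2 of 66cl4 and 0.0983 without replicate 2 of 67NR, and ran from 0.0111 to 0.107 over 18 alternative settings (edgeR, DESeq2 or limma).

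*Erbb2*, on the same chromosome (98412484 to 98437716), had 1468 to 2571 counts a library. Its CPM was 41.2 and 35.3 in 4T1.2 and 38.6 and 31.6 in 4T1, against 43.1 and 38.9 in 67NR and 56.7 and 52.9 in 66cl4. The 66cl4 libraries were the highest and the other lines overlapped in part. The pooled log2 difference was -0.37 (standard error 0.09, adjusted p = 0.00316, edgeR), or 1.29-fold lower in 4T1.2 and 4T1. *Erbb2* in 66cl4 was above 4T1.2 (adjusted p = 0.00394) and 4T1 (adjusted p = 0.00111, edgeR), and above 67NR with an adjusted p of 0.0204. That last value was 0.103 without replicate 1 of 66cl4, 0.0521 without replicate 1 of 67NR and 0.15 without replicate 2 of 67NR, within a range of 0.00426 to 0.15 over 19 alternatives. 67NR, 4T1.2 and 4T1 did not pass the test against each other (adjusted p = 0.137 to 0.555, edgeR). For 4T1 against 67NR the log2 difference of -0.22 became -0.37 with an adjusted p of 0.0223 (edgeR) without replicate 1 of 4T1, within a range of 0.0223 to 0.541.

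*Erbb3* was high in 4T1 alone. Its counts were 244 and 150 in 4T1 but 69 and 51 in 4T1.2, 42 and 76 in 67NR and 37 and 36 in 66cl4, which was 3.99 and 3.23 CPM in 4T1 and 0.803 to 1.23 CPM in the other 6 libraries. The pooled log2 difference of 0.99 (standard error 0.16, adjusted p = 0.000326, edgeR) was therefore an average over unlike lines, and the 4T1.2 libraries overlapped with those of 67NR. Between the related lines 4T1.2 and 4T1, *Erbb3* was lower in 4T1.2 (log2 -1.78, standard error 0.21, adjusted p = 0.000422, edgeR). 4T1.2 did not pass the test against 66cl4 (log2 0.38, adjusted p = 0.197, edgeR) or 67NR (log2 -0.18, adjusted p = 0.526, edgeR). In these counts the epithelial markers moved the same way between 4T1.2 and 4T1, with 6 of the 7 tested lower in 4T1.2 and a median log2 difference of -1.61, and their part in the *Erbb3* difference was not tested.

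Per length of gene, in RPKM, which divides CPM by the gene length in kilobases, *Erbb2* made up most of the receptor RNA in every line. The summed receptor level was 8.29 ± 0.965 RPKM in 4T1.2 and 8.25 ± 1.14 in 4T1, but 8.57 ± 0.572 in 67NR and 11.2 ± 0.554 in 66cl4 (SD, n = 2). Of that sum *Erbb2* took 92.4% in 4T1.2, 85.2% in 4T1, 95.8% in 67NR and 98.0% in 66cl4. *Egfr* took 4.49% in 4T1.2 and 3.93% in 4T1 but 0.746% in 67NR and 0.199% in 66cl4, and *Erbb3* took 10.9% in 4T1. These shares are descriptions of RNA and carry no test.

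*Tgfa*, which encodes transforming growth factor alpha (chromosome 6, 86195038 to 86275744), divided the lines most sharply. It had 5877 and 5356 counts in 4T1.2 and 4926 and 2911 in 4T1, against 3 and 1 in 67NR and 0 and 0 in 66cl4. It was at 62.8 to 103.4 CPM in the 4T1.2 and 4T1 libraries and at or near 0 in the others. Summed over libraries, the level in 4T1.2 and 4T1 was at least 1296-fold higher than in 66cl4, taking 3 counts for each 66cl4 library as the limit that a count of 0 allows. It was 2123 times that in 67NR (95% exact interval 829 to 7793, counting error only). The adjusted p of the pooled comparison was 2.72e-10 (edgeR), and 11 of the 13926 genes tested had a larger fitted difference, a fitted value that depends on the prior count where a group is near 0. Between 4T1.2 and 4T1 the log2 difference of 0.46 (standard error 0.14) missed the threshold with an adjusted p of 0.0566 (edgeR). It passed under 6 of 18 alternatives, with 0.00676 without replicate 1 of 4T1, in a range of 0.00676 to 0.245.

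*Hbegf*, encoding heparin-binding EGF-like growth factor, was the most abundant ligand per length in 3 of the 4 lines. Its CPM was 111.4 and 103.3 in 4T1.2 and 112.8 and 115.3 in 4T1, against 38.9 and 38.8 in 67NR and 72.5 and 82.9 in 66cl4. The lines fell in 3 steps that did not overlap, with 4T1.2 and 4T1 on the upper step. The pooled log2 difference was 1.01 (standard error 0.07, adjusted p = 3.57e-07, edgeR). 66cl4 was above 67NR by 1.00 on the log2 scale (adjusted p = 2.86e-05, edgeR), while 4T1.2 and 4T1 did not differ beyond their spread (log2 -0.09, adjusted p = 0.572, edgeR).

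*Areg*, which encodes amphiregulin (chromosome 5, 91139599 to 91148432), was expressed in all 4 lines at 33.2 and 32.1 CPM in 4T1.2 and 29.4 and 28.2 in 4T1, against 45.9 and 47.0 in 67NR and 20.6 and 28.1 in 66cl4. The 67NR libraries were the highest, and the groups of the pooled comparison overlapped. The pooled log2 difference was -0.13 (standard error 0.09, adjusted p = 0.22, edgeR), and without replicate 1 of 66cl4 it was -0.24 with an adjusted p of 0.0146, in a range of 0.0146 to 0.885 over 19 alternatives. 67NR was above each other line, with the widest gap to 66cl4 (66cl4 over 67NR, log2 -0.93, adjusted p = 0.000414, edgeR). Among the other lines, *Areg* in 4T1.2 was above 66cl4 (log2 0.42, adjusted p = 0.0178, edgeR). That difference missed the threshold without replicate 1 of 66cl4 (0.123) or of 4T1.2 (0.0579), in a range of 0.00121 to 0.123. For 4T1 against 66cl4, the log2 difference of 0.24 (adjusted p = 0.131, edgeR) was 0.48 without replicate 2 of 66cl4 (0.00597, in a range of 0.00597 to 0.793).

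*Btc*, which encodes betacellulin, a ligand of EGFR and ERBB4 (chromosome 5, 91357261 to 91402994), ran the other way from *Tgfa*. It had 63 and 76 counts in 4T1.2 and 61 and 42 in 4T1, against 180 and 334 in 67NR and 492 and 457 in 66cl4. Its level was 0.905 to 1.34 CPM in the 4T1.2 and 4T1 libraries, 4.91 and 5.41 in 67NR and 10.9 and 10.2 in 66cl4. The libraries did not overlap, and the pooled log2 difference was -2.77 (standard error 0.12, adjusted p = 1.36e-08, edgeR). 66cl4 was above 67NR by 1.02 on the log2 scale (adjusted p = 0.000362, edgeR), and 4T1.2 and 4T1 did not pass the test against each other (log2 0.36, adjusted p = 0.248, edgeR).

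Promoter sequence is shown for the members that split the lines in opposite directions, *Tgfa* and *Egfr* against *Btc*, and for *Areg*, which did not split them. RefSeq windows (GRCm38.p6) of 250 bases before a transcript start were on hand for 6 of the 10 genes, namely *Egfr*, *Erbb2*, *Erbb4*, *Areg*, *Tgfa* and *Btc*. Each was searched on both strands for the AP-1 motif TGANTCA, the Sp1 motif GGGCGG, the TATA motif TATAAA, the E-box CAGGTG and the cyclic AMP response element (CRE) TGACGT. Capitals mark the matches, and each sequence is written 5′ to 3′ on the strand of the gene. The *Tgfa* window ends at a start that lies inside the annotated gene, so only its first 66 bases, those before the outermost start, are printed. The *Erbb4* window lies wholly inside the annotated gene, which starts farther upstream, and the windows of the other 4 end at the outermost start.
Tgfa (chr6:86194972-86195037, plus strand): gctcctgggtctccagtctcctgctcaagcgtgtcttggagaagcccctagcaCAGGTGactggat
Egfr (chr11:16751953-16752202, plus strand): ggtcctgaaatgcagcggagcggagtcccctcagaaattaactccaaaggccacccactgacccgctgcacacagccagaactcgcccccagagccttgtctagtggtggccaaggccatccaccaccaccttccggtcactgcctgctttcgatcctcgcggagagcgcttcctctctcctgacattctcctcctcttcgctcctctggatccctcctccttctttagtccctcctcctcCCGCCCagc
Btc (chr5:91402995-91403244, minus strand): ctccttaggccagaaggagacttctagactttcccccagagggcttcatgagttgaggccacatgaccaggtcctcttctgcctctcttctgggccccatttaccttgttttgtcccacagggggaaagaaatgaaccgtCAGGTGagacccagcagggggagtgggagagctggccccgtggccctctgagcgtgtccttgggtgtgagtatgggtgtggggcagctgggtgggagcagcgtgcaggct
Areg (chr5:91139349-91139598, plus strand): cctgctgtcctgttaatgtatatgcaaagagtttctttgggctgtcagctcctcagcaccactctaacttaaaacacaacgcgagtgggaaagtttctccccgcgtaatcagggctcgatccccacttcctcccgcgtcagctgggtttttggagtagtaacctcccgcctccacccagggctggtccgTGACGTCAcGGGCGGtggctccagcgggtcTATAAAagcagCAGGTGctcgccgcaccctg

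In the *Areg* window a CRE began 61 bases before the start, with its reverse complement overlapping it from 59 bases, followed by an Sp1 motif at 52, a TATA motif at 31 and an E-box at 20. Counted from the end of its full window, *Tgfa* held an E-box at 197 bases and Sp1 motifs at 126 and 15, *Btc* held an E-box at 110, and *Egfr* held an Sp1 motif at 9. No AP-1 motif lay in any of the 6 windows, and the *Erbb2* window, like the one inside *Erbb4*, held none of the 5 motifs. Over all 32851 windows of this length, 32.7% held the Sp1 motif, 17.2% the E-box, 12.4% the TATA motif, 6.7% the AP-1 motif and 6.5% the CRE. The *Tgfa* window held 19 CpG dinucleotides and was 69.2% G and C, the *Areg* window 15 and 57.2%, the *Egfr* window 11 and 60.8% and the *Btc* window 4 and 59.6%, beside medians of 6 and 52.4% over all windows. These are matches of letters and no measure of binding.

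*Nrg1*, encoding neuregulin-1, a ligand of ERBB3 and ERBB4 (chromosome 8, 31807452 to 32891609), was higher in every 66cl4 and 67NR library. Its CPM was 4.61 and 5.11 in 4T1.2 and 3.40 and 2.54 in 4T1, against 73.1 and 63.0 in 67NR and 37.9 and 36.3 in 66cl4. The log2 difference was -3.72 (standard error 0.11, adjusted p = 6.23e-10, edgeR), and each line stood apart from the next. 67NR was above 66cl4 (66cl4 over 67NR, log2 -0.87, adjusted p = 0.000481, edgeR) and 4T1.2 above 4T1 (log2 0.70, adjusted p = 0.0125, edgeR). The last value was 0.0815 without replicate 2 of 4T1.2, in a range of 0.0006 to 0.0815 over 19 alternatives.

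The 5 other ligands of the family did not share a direction. Of the 4 tested, *Epgn* (log2 1.62, standard error 0.27, adjusted p = 0.000346) and *Nrg2* (log2 1.35, standard error 0.08, adjusted p = 1.12e-07) were higher in 4T1.2 and 4T1, and *Egf* (log2 -3.51, standard error 0.20, adjusted p = 1.35e-07, edgeR) was lower. *Nrg4* did not pass (log2 -0.13, adjusted p = 0.626, edgeR), and *Nrg3* had 1 count in 1 library. *Nrg2*, encoding neuregulin-2, had 1294 and 1350 counts in 4T1.2 and 1024 and 783 in 4T1, against 128 and 229 in 67NR and 777 and 723 in 66cl4. The line apart was 67NR, which was 2.20 below 66cl4 on the log2 scale (66cl4 over 67NR, adjusted p = 7.84e-07, edgeR), while 4T1 and 66cl4 did not differ beyond their spread (log2 0.02, adjusted p = 0.899, edgeR). *Egf* itself was scarce, with 9 to 12 counts in the 4T1.2 and 4T1 libraries, 129 and 223 in 67NR and 52 and 69 in 66cl4. *Epgn*, for epigen, had 19 to 27 counts in the 4T1.2 and 4T1 libraries and 4 to 8 in the others. Like *Tgfa*, it passed the filter on low counts only through the 4T1.2 and 4T1 libraries.

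**Figure D2:**
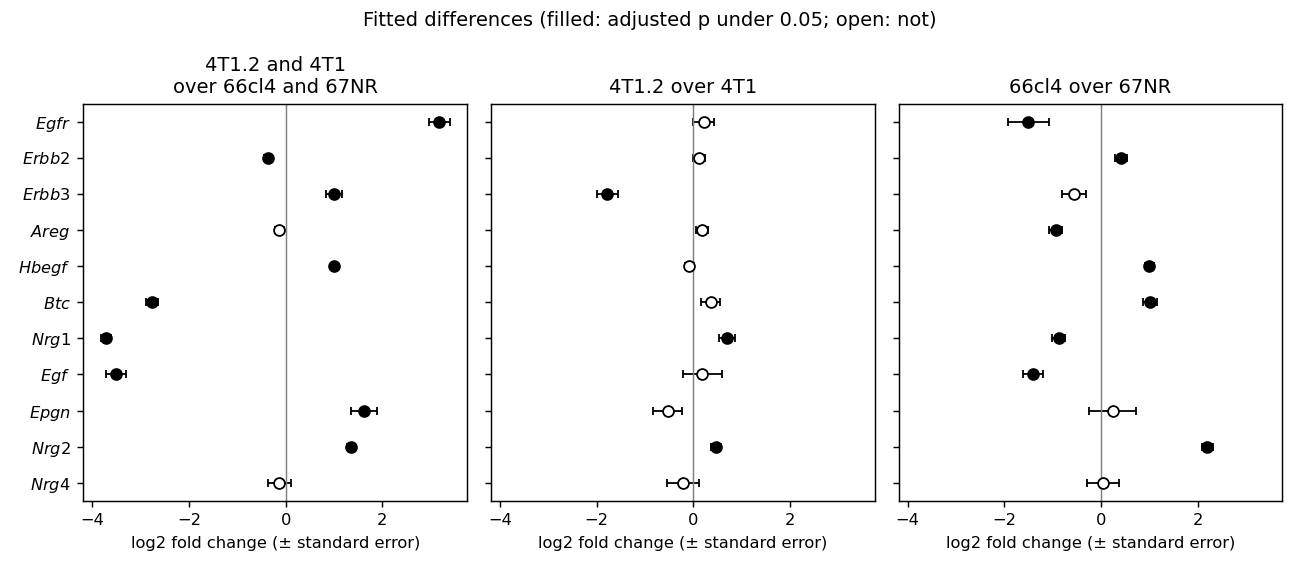
Fitted log2 differences with their standard errors for the tested genes of the family, with filled points for an adjusted p under 0.05 (edgeR) and open points for the rest. *Tgfa* is left out because its fitted value depends on the prior count. *Egfr* and *Hbegf* lie to the right and *Btc*, *Nrg1* and *Egf* to the left in the pooled comparison, while *Erbb3* is the gene farthest from 0 between 4T1.2 and 4T1.

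Set against length, the ligands differed between lines both in their makeup and in their sum. The ligands that bind EGFR summed to 96.5 ± 4.57 RPKM in 4T1.2 and 89.7 ± 2.89 in 4T1, but 57.7 ± 0.725 in 67NR and 57.1 ± 7.43 in 66cl4 (SD, n = 2). In 4T1.2 the sum was 46.8% *Hbegf*, 28.2% *Areg* and 24.2% *Tgfa*, and in 4T1 it was 53.6% *Hbegf*, 26.8% *Areg* and 18.9% *Tgfa*. 66cl4 held 57.5% *Hbegf*, 35.4% *Areg* and 6.49% *Btc*. In 67NR the order was turned, with 67.1% *Areg*, 28.3% *Hbegf* and 3.10% *Btc*. The neuregulins summed to 10.9 ± 0.522 RPKM in 4T1.2 and 7.77 ± 0.338 in 4T1, but 34.1 ± 3.25 in 67NR and 24.0 ± 0.939 in 66cl4 (SD, n = 2). *Nrg2* was 75.3% of that sum in 4T1.2 and 76.3% in 4T1, whereas *Nrg1* was 95.0% in 67NR and 73.7% in 66cl4. The ratio of EGFR ligand RNA to neuregulin RNA was 8.88 ± 0.845 in 4T1.2 and 11.5 ± 0.130 in 4T1, but 1.71 ± 0.184 in 67NR and 2.39 ± 0.404 in 66cl4 (SD, n = 2). These sums are descriptions with no test, and RNA levels per length say nothing of the protein released.

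**Figure D3:**
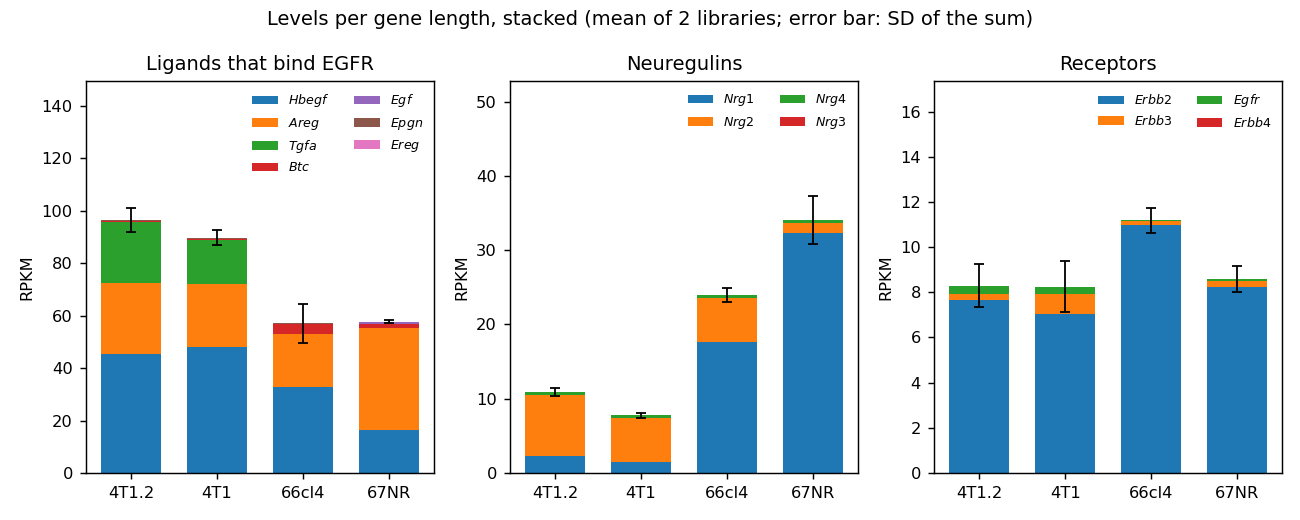
Stacked mean levels per gene length (RPKM) of the ligands that bind EGFR, the neuregulins and the receptors in each line, with error bars for the SD of the sum over 2 libraries. *Tgfa* takes 24.2% of the EGFR ligand sum in 4T1.2 and 18.9% in 4T1 and nearly none in 66cl4 and 67NR, the neuregulin sum is largest in 67NR, and *Erbb2* fills most of each receptor bar.

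Between single lines, the members were compared in 6 pairs, which share libraries with each other and with the pooled comparison. Between 4T1.2 and 4T1, 2 of the 8 tested genes passed (*Nrg1* higher and *Erbb3* lower in 4T1.2), where 19.3% of all genes did. Between 66cl4 and 67NR, 6 of the 8 passed, with *Erbb2*, *Hbegf* and *Btc* higher and *Egfr*, *Areg* and *Nrg1* lower in 66cl4, where 44.6% of all genes passed. Across the main split, 7 of 8 passed for 4T1.2 against 66cl4 (background 68.8%) and 6 of 8 for 4T1.2 against 67NR (67.9%). The count was 7 of 8 both for 4T1 against 66cl4 (70.0%) and for 4T1 against 67NR (68.2%). In a test for any difference among the 4 lines, all 8 tested genes passed, against 84.8% of all genes.

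Proteins that release or mature the ligands were read from a list of 7 genes, all tested and all past the threshold in the pooled comparison, 5 higher and 2 lower, with a median log2 difference of 0.43. These counts, like those of the lists that follow, stand beside the 76.8% of all genes that passed. The lists too were chosen with earlier results of these data known, so their counts and medians are descriptions. *Adam17*, encoding the main sheddase of *Tgfa*, *Areg* and *Hbegf* products, was higher in 4T1.2 and 4T1 (log2 0.82, standard error 0.06, adjusted p = 1.41e-06, edgeR), at 159.6 to 181.2 CPM against 85.1 to 106.6. *Frmd8*, whose product keeps the sheddase complex stable, was higher as well (log2 0.96, adjusted p = 9.73e-07, edgeR). *Rhbdf1* and *Rhbdf2*, encoding the iRhoms that carry ADAM17 to the surface, were lower (log2 -0.58 and -0.50, adjusted p = 6.43e-05 and 0.00176, edgeR). None of the 7 differed by more than 2-fold.

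Of 25 receptor signal transducers, all tested, 6 were higher, 14 lower and 5 did not pass, and the median log2 difference was -0.28. The adaptor genes *Grb7* and *Gab1* gave the widest differences, in opposite directions. Other adaptor genes of the list differed by less, namely *Grb2* (log2 -0.41), *Shc1* (log2 -0.99) and *Gab2* (log2 0.72). *Grb2*, *Shc1* and *Gab2* were chosen after their values were seen. *Grb7*, an SH2 adaptor that binds ERBB2 and ERBB3, had 737 and 663 counts in 4T1.2 and 1617 and 1276 in 4T1, against 0 and 1 in 67NR and 2 and 1 in 66cl4. Summed over the libraries its level was 916 times higher in 4T1.2 and 4T1 (95% exact interval 357 to 3362, counting error only, adjusted p = 8.12e-11, edgeR). *Grb7* passed the filter on low counts only through the 4T1.2 and 4T1 libraries, so its call as higher is a description. *Gab1*, a docking protein that links receptors to phosphoinositide 3-kinase, had 29 and 26 counts in 4T1.2 and 52 and 34 in 4T1, against 2377 and 3974 in 67NR and 1895 and 2115 in 66cl4. Its log2 difference was -6.42 (standard error 0.10, adjusted p = 2.02e-11, edgeR). Both genes also differed between 4T1.2 and 4T1, with *Grb7* lower (log2 -1.13, adjusted p = 0.000283) and *Gab1* lower (log2 -0.72, adjusted p = 0.032, edgeR) in 4T1.2. The phosphoinositide 3-kinase subunit genes *Pik3r1* (log2 -1.75, adjusted p = 5.71e-09) and *Pik3cb* (log2 -1.19, adjusted p = 5.91e-07, edgeR) were lower in 4T1.2 and 4T1.

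Negative regulators of the receptors and of the Ras pathway numbered 16, all tested, with 9 higher, 5 lower and 2 not past the threshold (median log2 difference 0.32). *Cblc*, a member of the CBL ubiquitin ligase family, had 229 to 516 counts in the 4T1.2 and 4T1 libraries and 1 count in all in the others (ratio 1235, 95% exact interval 221 to 48800, adjusted p = 1.08e-08, edgeR). Like *Grb7*, *Cblc* passed the filter on low counts only through the 4T1.2 and 4T1 libraries. Its relatives *Cbl* (log2 -0.56, adjusted p = 0.0252) and *Cblb* (log2 -0.52, adjusted p = 0.000399, edgeR) were lower. *Lrig3*, of a family of leucine-rich membrane proteins that act on these receptors, was lower (log2 -2.48, standard error 0.09, adjusted p = 4.88e-09, edgeR). *Spry1* and *Spred1*, inhibitors of Ras signalling, were higher (log2 1.39 and 0.86, adjusted p = 9.51e-09 and 8.05e-07, edgeR), with 24.4% of the exon bases of *Spry1* shared with a transcript of the opposite strand. *Errfi1*, which encodes an inhibitor of the EGFR kinase, did not pass (log2 0.02, adjusted p = 0.764, edgeR). *Cbl*, *Cblb* and *Errfi1* were chosen after their values were seen.

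The 14 output genes of the extracellular signal-regulated kinase (ERK) cascade, all tested, held 10 higher and 4 lower in 4T1.2 and 4T1. Their median log2 difference was 1.18. In either direction, 8 of the genes passed the threshold with more than 2-fold, where 31.9% of all genes did. Among the 8 were *Egr1* and *Epha4*, of which *Epha4* was lower. *Etv4*, encoding a transcription factor of the ETS family, was at 232.3 to 291.8 CPM in 4T1.2 and 4T1 and 31.8 to 38.5 CPM in 66cl4 and 67NR (log2 2.91, standard error 0.08, adjusted p = 5.16e-10, edgeR). *Dusp6*, for a phosphatase of ERK, was at 426.4 to 563.0 CPM against 76.7 to 103.5 (log2 2.41, standard error 0.08, adjusted p = 1.57e-09, edgeR). *Spry4* and *Dusp5* were also higher (log2 1.98 and 1.67, adjusted p = 9.06e-07 and 1.13e-07, edgeR), though 22.1% of the exon bases of *Dusp5* overlap an antisense gene. *Epha4* was lower (log2 -1.05, adjusted p = 6.67e-07, edgeR), as were *Fosl1*, *Epha2* and *Ccnd1* by less. *Egr1*, an immediate early gene, did not follow the split of the lines, with 6291 and 6039 counts in 66cl4, 15 and 34 in 67NR, 6221 and 6044 in 4T1.2 and 3831 and 1798 in 4T1. *Epha4*, *Fosl1*, *Epha2*, *Ccnd1* and *Egr1* were chosen after their values were seen. These genes answer to other receptors too, and ERK activity was not measured.

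**Figure D4:**
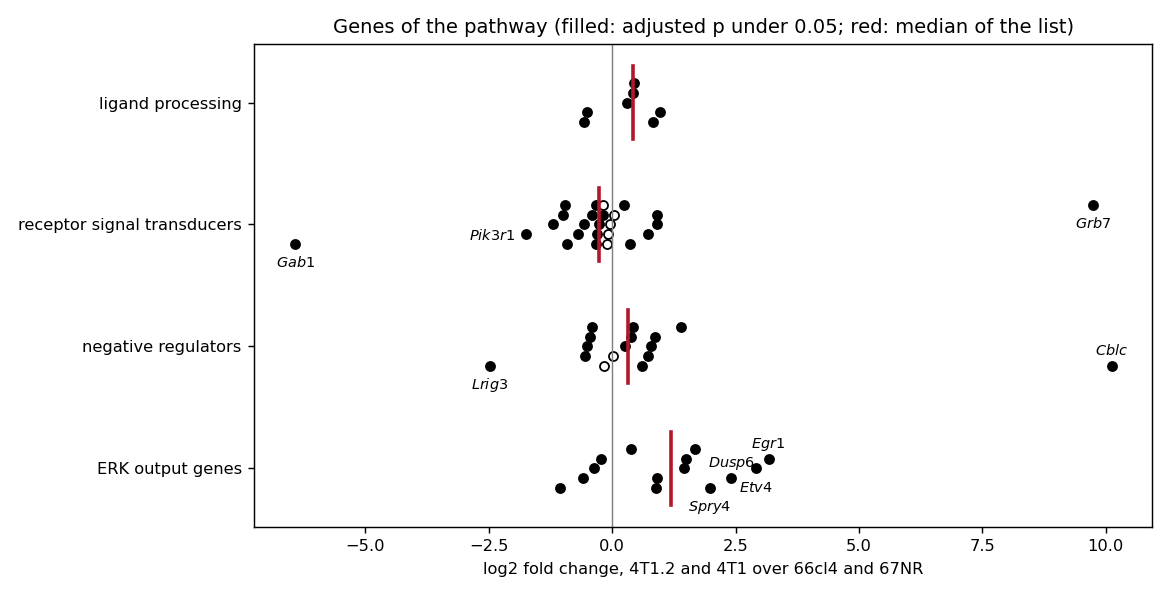
Fitted log2 differences between 4T1.2 and 4T1 and the other lines for the genes of 4 lists of the pathway, with filled points for an adjusted p under 0.05 (edgeR), open points for the rest and a red bar at the median of each list. The ERK output genes have the highest median, 1.18, and *Gab1*, *Grb7* and *Cblc* lie farthest out, where the values of *Grb7* and *Cblc* depend on the prior count.

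The neighbours of *Erbb2* did not follow it. Within 150 kb lay 14 other genes, of which 7 were tested. In 4T1.2 and 4T1, 6 of them were higher, where 38.1% of all genes tested were. *Grb7* and *Ppp1r1b* passed the filter on low counts only through the 4T1.2 and 4T1 libraries, so this count is a description. *Erbb2* was lower on average, with neither 4T1.2 nor 4T1 past the threshold against 67NR. *Grb7*, whose lower end lies 34.4 kb past the lower end of *Erbb2*, is described above. *Stard3* (log2 1.36, adjusted p = 7.11e-08) and *Mien1* (log2 1.19, adjusted p = 1.01e-05, edgeR) were higher, as was *Ppp1r1b* (log2 2.61, adjusted p = 0.00112, edgeR) with 22 counts at most. *Pgap3* (log2 0.26) and *Ormdl3* (log2 0.43) differed by less, and *Cdk12* did not pass (adjusted p = 0.353, edgeR). *Mien1* lies next to *Erbb2* on the opposite strand, and 9 bases of their exons overlap. Around *Ereg*, *Areg* and *Btc*, which lie with *Epgn* in a cluster on chromosome 5, *Epgn* and *Mthfd2l* (log2 0.34, adjusted p = 0.00151, edgeR) were higher, *Btc* was lower, and *Areg* did not pass. Within this cluster of ligand genes the differences thus ran in both directions.

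**Figure D5:**
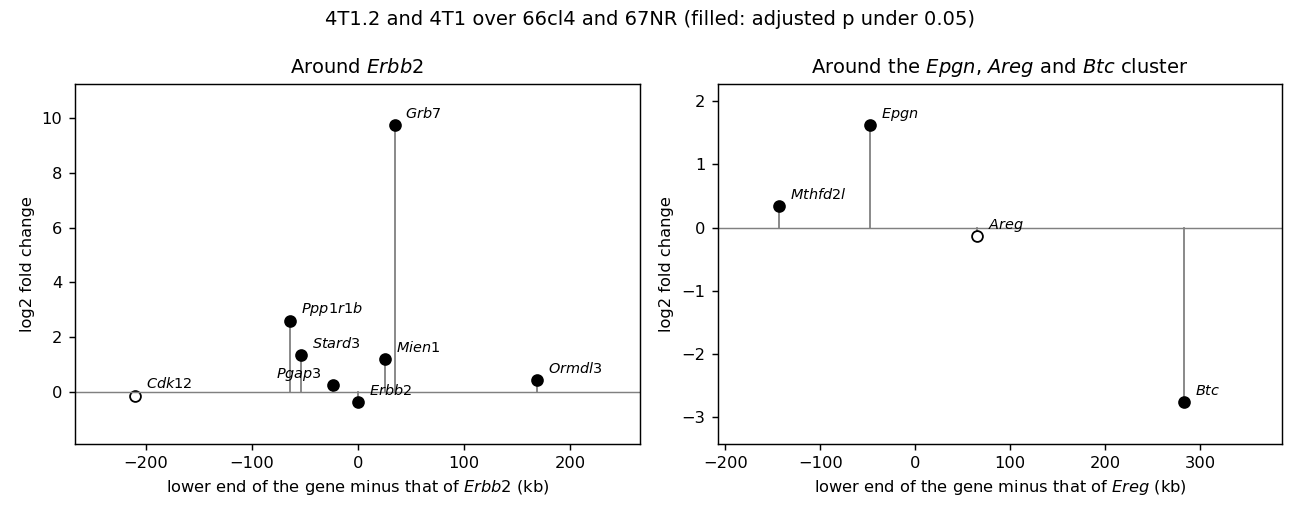
Fitted log2 differences between 4T1.2 and 4T1 and the other lines for the tested genes around *Erbb2* (left) and around the ligand cluster with *Ereg* at 0 (right). The horizontal axis is the lower end of each gene minus that of *Erbb2* or *Ereg*, in kilobases. Filled points have an adjusted p under 0.05 (edgeR). *Erbb2* lies below 0 among neighbours above it, and in the cluster *Epgn* is above and *Btc* below.

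By likeness of profile over the 8 libraries, measured as the root mean square difference of centred log2 CPM with a prior count of 2, the genes nearest to each member were named as a description. *Faah* was nearest to *Egfr* (0.15 log2 units, Pearson r 0.997), *Lyn* to *Hbegf* (0.07, r 0.997) and *Nptx1* to *Tgfa* (0.22, r 0.999). *C1rb* was nearest to *Btc* (0.17, r 0.994), *Pcdhb16* to *Nrg1* (0.22, r 0.996) and *Ngef* to *Erbb3* (0.17, r 0.990). For the genes that varied least, *Coro7* was nearest to *Erbb2* (0.06, r 0.977) and *Alg1* to *Areg* (0.10, r 0.966). The second nearest were *Flrt3*, *Gjc1*, *Scara3*, *Lzts1*, *Ndst3*, *Pemt*, *Zc3hav1* and *Asf1b* in the same order of members. The prior count draws in the differences of genes with few counts, such as *Lzts1*, listed beside *Btc*, which had 0 counts in the 4T1.2 and 4T1 libraries and 4 to 17 in the others. With 2 libraries a line, each r rests on 4 line means, and no p is given.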

How the data were processed

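RNA-seq of 8 libraries, 2 biological replicates of each of 4 mouse mammary tumour lines, was analysed. The libraries were made with TruSeq RNA v2, which does not keep strand. Per the study's methods, the authors used Rsubread to align reads to mm10 (GRCm38) and featureCounts to assign them to Entrez genes, and they deposited the raw counts per gene with no normalization. Whether the counting used strand is not given in the sources used here, so reads from a gene and an overlapping gene of the other strand cannot be told apart. Among the 15 receptor and ligand genes, the overlap with any single other gene covers at most 6.06% of exon bases (*Nrg4*). *Nrg4* overlaps another gene as well (2.91%), and *Egf* has overlaps of 5.38% and 4.43%. The joint cover of a gene was not computed. Read in the sense direction, none of the 75-base stretches of these genes is found in transcripts of another gene. Reverse complements were not searched, so that search does not cover overlaps with the opposite strand.

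From the counts, 25275 of 27179 identifiers (93.0%) matched RefSeq's gene table. Of the 15269 genes past filterByExpr, 13926 were tested once ribosomal genes, predicted genes and unmatched identifiers (5.27% to 7.87% of a library's counts) were dropped. edgeR 4.0.16 (R 4.3.3) was used with TMM scaling and a quasi-likelihood F-test (legacy fit, prior count 0.125). Each line had a mean, and all 8 libraries shared 1 estimate of spread (4 residual degrees of freedom, biological coefficient of variation 9.74%). Adjusted p-values are Benjamini-Hochberg values over the 13926 genes, with a threshold of 0.05. CPM and RPKM were computed from the counts, the TMM library sizes and the deposited gene lengths. The script was tested on simulated data. Limits for counts of 0 use 3 counts a library, and they and the exact intervals cover counting error only. No pair of replicates was within sampling noise (chi-square per degree of freedom 10.4 to 75.9). All value columns were mapped to a sample.

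The 10 genes and the gene lists were chosen with earlier results of these data known. Besides the receptors and ligands, the genes named are up to 4 of each pathway list with the largest differences past the threshold and no overlap of libraries, the 2 genes nearest in profile to each tested member, cell type markers, and genes within 150 kb of *Erbb2* and of the *Areg*, *Ereg* and *Btc* cluster. Alternatives were DESeq2's size factors, 2 other filters on low counts, no removal by annotation, DESeq2 1.42.0, limma-voom (limma 3.58.1), the newer quasi-likelihood fit, robust estimation, a prior count of 2, a replicate block, thinning to the smallest total and leaving out each library in turn.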

Additional observations from a re-analysis of the deposited data

How the results depend on the processing

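No member changed direction while called, and of the 1050 values recomputed for single members, 1031 kept their side of the threshold, 10 moved past it and 9 fell short of it. With at least 10 counts required in every library, *Egfr* and *Tgfa* could not be tested, so the members higher numbered 2 in the pooled comparison (4 in the main analysis), 2 for 4T1.2 against 66cl4, 1 for 4T1.2 against 67NR, 2 for 4T1 against 66cl4 and 2 for 4T1 against 67NR. Members higher in 4T1.2 than in 4T1 numbered 2 instead of 1 with no filter, DESeq2's Wald test, limma-voom, a replicate block or thinned counts, where *Tgfa* joined *Nrg1*, and 0 to 2 with a library left out. Over all genes, leaving out a library gave 602 to 1542 higher and 770 to 1568 lower for 4T1.2 against 4T1 (1305 and 1381 with all libraries), lowest without replicate 1 of 4T1.2, and 2044 to 3488 higher for 66cl4 against 67NR (3096 with all), lowest without replicate 2 of 67NR. In these fits a lone library is assumed to vary like the other lines. The labels do not say whether replicate numbers pair the samples, and the main analysis used no pairing. The differences between replicates correlated at -0.123 to 0.27 between lines, highest for 4T1.2 with 4T1. These correlations cannot decide whether replicates were prepared together. With the replicate block, *Tgfa* was higher in 4T1.2 than in 4T1 (log2 0.47, adjusted p = 0.0188) and *Erbb2* lower in 4T1 than in 67NR (log2 -0.23, adjusted p = 0.0468, edgeR), and no other call on a member changed. Depth limits *Egfr*, with 5 to 27 counts in the 66cl4 and 67NR libraries, and *Ereg* and *Erbb4*, where a count of 0 allows a level of up to 3 counts a library.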
